A study of Mus musculus with 30 samples.

Results

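Haematopoietic stem cells (HSCs), the rare bone marrow cells that renew all blood lineages, were compared between wild-type mice of 1 year and wild-type mice of 2 months. The comparison rests on 9 of the 30 RNA sequencing libraries of the series, 5 labelled wild type (WT) 1 year and 4 labelled WT 2 months, chosen by genotype and age label alone. Beside them stand 4 libraries of IL1R1 KO mice of 1 year and 3 of 2 months, 2 libraries of bowel germ-free mice of 1 year and 3 of 2 months, 4 libraries of WT mice of 2 years and 5 of IL1R1 KO mice of 2 years. IL1R1 KO 1 year replicate 1 carries an age field of 2 months, and it was grouped by its title. IL1R1 is the signalling receptor of interleukin-1, and the series title asks about interleukin-1 and the microbiome in HSC ageing. No source used here gives the strain, the sex, the knockout allele or the surface markers used to sort the cells. The design text counts 30 mice, as many as libraries, but no label ties a library to an animal, so p-values measure the spread between these libraries, part of which may be technical.

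In mice, HSCs become more numerous with age while each gives rise to fewer lymphoid and relatively more myeloid and platelet cells. Most adult HSCs rest outside the cell cycle, and they carry Kit, the endothelial protein C receptor Procr and the SLAM receptor Slamf1 at their surface. A set of adhesion and stress genes, Selp and Clu among them, is known to be high in HSCs of old mice.

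About 4000 to 5000 sorted cells went into each library, and the deposited values are the authors' normalized counts per gene. The low values put the depth of the WT 1 year libraries at 32.6 to 56.3 M reads and that of the WT 2 months libraries at 20.0 to 29.5 M, so depth and age cannot be told apart. Values above 0 were held by 18258 to 19417 genes at 1 year and by 17030 to 18287 genes at 2 months. The sorted identity was checked against 10 HSC markers, all of which were above 0 in all 9 libraries, among them Kit (17764 to 28971 normalized counts), Procr (3851 to 7033) and the HSC factor Hlf (6702 to 9261). Hoxb5, a factor known to mark long-term HSCs in mice, was the lowest of the 10 (255 to 542).

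Of 16958 tested genes, 1818 passed the test (limma, Benjamini-Hochberg adjusted p under 0.05 over all tested genes), which is 10.7%. Of these, 1037 (6.12%) were higher at 1 year and 781 (4.61%) were lower. The median log2 change of all tested genes was 0.01. Among the genes that passed, the median change was 0.82 for the higher and -0.72 for the lower ones, and 439 higher and 280 lower genes moved more than 2-fold. The 5 libraries of 1 year did not overlap with the 4 of 2 months for 2121 genes (12.5%), whether or not they passed, 1168 of them higher (6.89%) and 953 lower (5.62%) at 1 year.

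**Figure D1:**
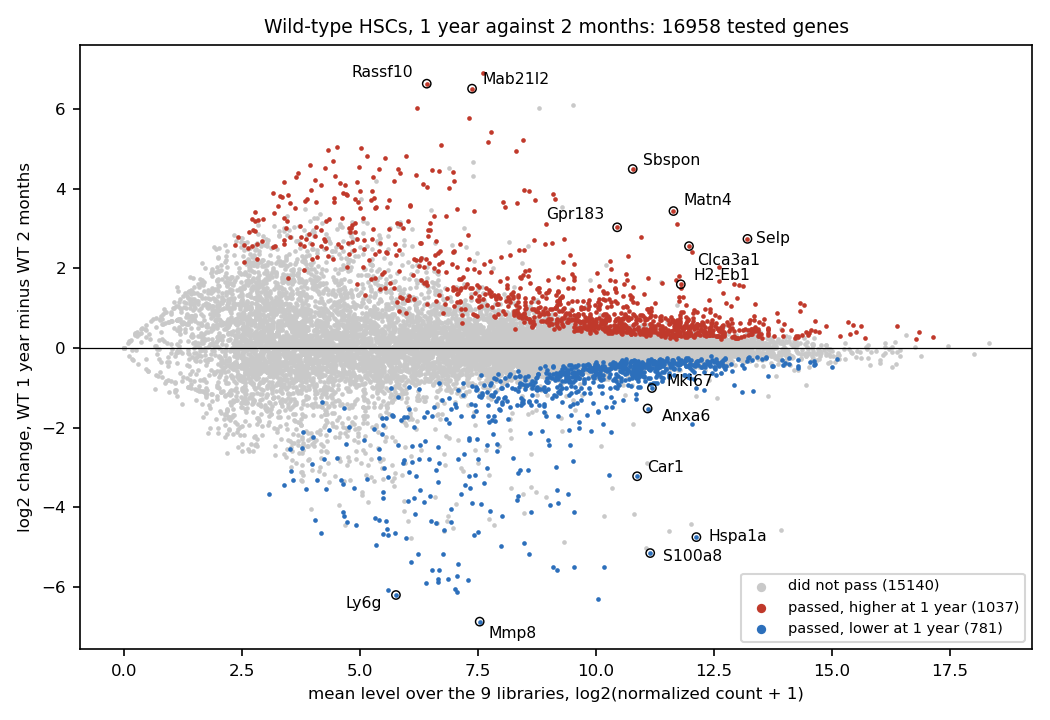
Log2 change between WT 1 year and WT 2 months (vertical axis) against mean level over the 9 libraries on the log2(normalized count + 1) scale (horizontal axis). Each point is 1 of 16958 genes, red where it passed and was higher at 1 year (1037), blue where it passed and was lower (781), and grey otherwise. Selp, Clca3a1, Gpr183, Matn4 and Sbspon rose to high levels at 1 year, while Hspa1a and the granulocyte genes S100a8, Mmp8 and Ly6g are among the large falls.

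The clearest rise by its p-value was that of Clca3a1, which encodes a secreted metalloprotease of the chloride channel accessory family. Its normalized counts were 6396, 6157, 5874, 6058 and 7223 in the 5 libraries of 1 year, against 1181, 1001, 822 and 1375 in the 4 of 2 months. The highest library of 2 months lay far below the lowest of 1 year. The log2 change was 2.56 ± 0.12 (SE, limma adjusted p = 8.01e-15). Gpr183, a receptor for oxysterols that guides immune cell migration, had 2360, 2230, 2407, 2401 and 2009 normalized counts at 1 year, against 323, 240.4, 187 and 411 at 2 months (log2 change 3.03 ± 0.25, SE, limma adjusted p = 1.30e-09). Again the groups stood apart, and the libraries of 1 year lay closer together than those of 2 months. Cldn5, a tight junction protein best known from endothelium, had 5096, 6433, 6067, 5606 and 4422 at 1 year, against 746, 644, 538 and 622 at 2 months (log2 change 3.11 ± 0.21, SE, limma adjusted p = 1.50e-11). Matn4, a matrix protein of the matrilin family that restrains HSC proliferation in mice, had 3874, 6705, 6241, 5100 and 4844 at 1 year, against 632, 488, 409 and 437 at 2 months. Its log2 change was 3.44 ± 0.36 (SE, limma adjusted p = 2.56e-07). Sbspon, a secreted protein with somatomedin B and thrombospondin domains, had 2313, 2867, 3880, 2688 and 3508 at 1 year, against 169, 97.4, 155 and 120.4 at 2 months (4.49 ± 0.30, SE, limma adjusted p = 1.56e-11). It had the largest rise among non-overlapping named genes whose mean reached 2000 normalized counts in either group.

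Several genes were close to undetected in young HSCs and plain in those of 1 year. Rassf10, of the Ras association domain family, had 85.8, 147, 169, 161 and 193.5 normalized counts at 1 year, against 3.80, 0, 0 and 0 at 2 months. Mab21l2, best known from eye development, had 353, 197, 280.3, 381 and 235 at 1 year, against 39.2, 0, 1.28 and 0 at 2 months. In both genes the single young library with a clear value was WT 2 months replicate 1, which also held 13.9 of the neurotrophin Ntf3 where the other three held 0. Fitted log2 changes of such genes depend on the added count of 1 and are given only as fitted: 6.63 ± 0.67 for Rassf10, 6.51 ± 0.84 for Mab21l2 and 6.03 ± 0.79 for Ntf3 (SE, limma adjusted p = 5.02e-08, 4.86e-06 and 5.44e-06). The other largest rises were of Kcnb2 (a potassium channel subunit), Aldh3a1 (an aldehyde dehydrogenase), C4b (complement C4), Ripk4 (a kinase), Gabra4 (a GABA receptor subunit), Spint1 (a protease inhibitor), Bhlhe41 (a circadian repressor) and Tmem117, with log2 changes of 4.44 to 5.77.

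Genes known to be high in aged HSCs were counted in a list of 30, all tested. Of these, 29 rose (96.67% of the list, against 6.12% of all genes), 0 fell, and the median log2 change was 1.82. The list was drawn up with earlier results of these data known, so its count describes these libraries and is not independent evidence. The mean log2 level of the list was 11.25 ± 0.0883 at 1 year and 9.18 ± 0.194 at 2 months (SD, n = 5 and 4), with no overlap (11.16 to 11.37, against 8.91 to 9.37). Members beyond those already described included Gstm2, a glutathione transferase (2.78 ± 0.19, SE), Rorb, a nuclear receptor (3.98 ± 0.37, SE), Enpp5, an ectonucleotidase relative (1.59 ± 0.10, SE), Cavin2, a caveolar coat protein (1.68 ± 0.11, SE), and Vwf, the platelet adhesion factor (1.05 ± 0.15, SE). Their limma adjusted p-values were at most 1.94e-05. Plcl1, a phospholipase C relative, was the member that did not pass (0.22 ± 0.27, SE, limma adjusted p = 0.689). Without WT 2 months replicates 2 and 4, which hold many transcripts of myeloid progenitors, 26 of the 30 passed and the median was 1.71.

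**Figure D2:**
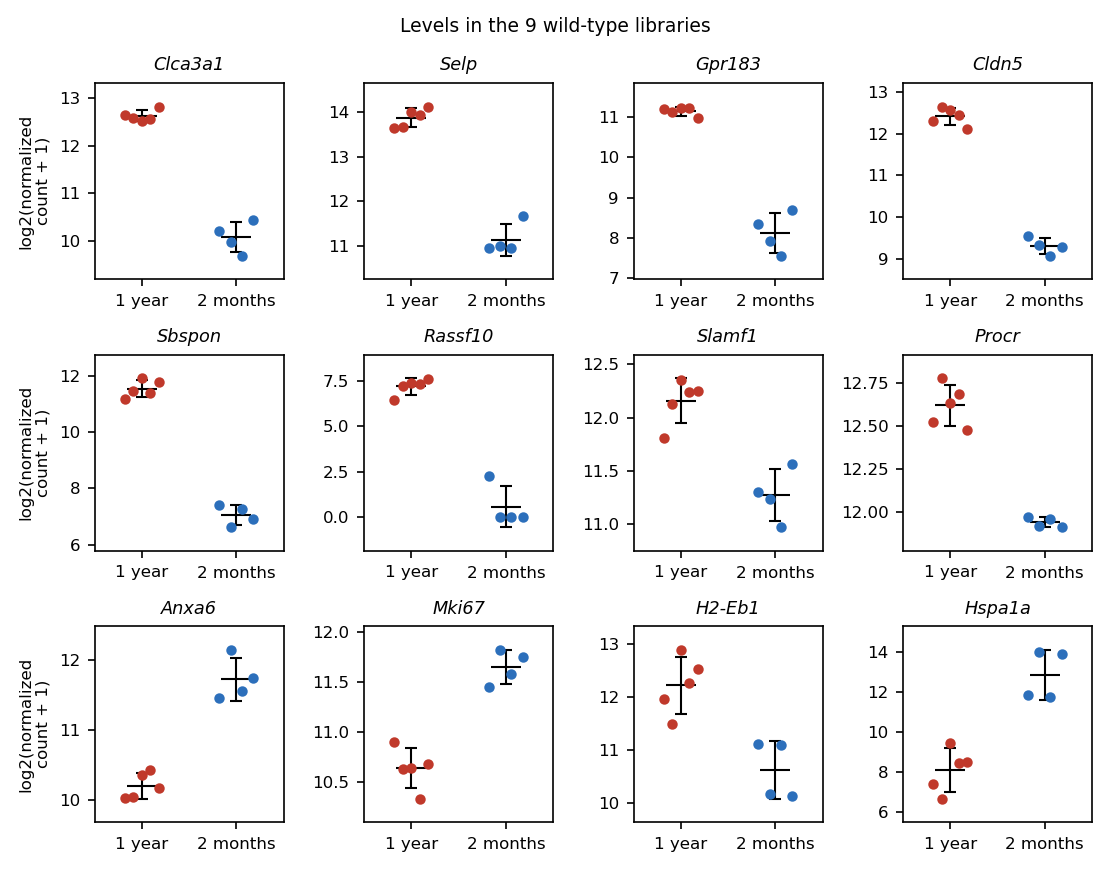
Levels of 12 genes on the log2(normalized count + 1) scale (vertical axes, a separate range for each gene and not starting at 0) in the 5 libraries of WT 1 year and the 4 of WT 2 months. Points are libraries, and the bar and whiskers are mean and SD. In each of the 12 genes the points of the groups do not overlap, with Clca3a1 to Procr higher and Anxa6, Mki67 and Hspa1a lower at 1 year, and H2-Eb1 higher.

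Of 17 tested genes of the HSC surface, 7 rose (41.2%, against 6.12% of all genes) and 2 fell (11.8%, against 4.61%), with a median log2 change of 0.21. Without WT 2 months replicates 2 and 4, 4 rose and 1 fell, and with the myeloid marker level as a covariate 2 rose and 1 fell. Slamf1, the SLAM receptor CD150, had 3595, 4483, 5249, 4849 and 4882 normalized counts at 1 year, against 2528, 2411, 2008 and 3037 at 2 months (log2 change 0.89 ± 0.11, SE, limma adjusted p = 3.80e-06). Procr had 5903, 7033, 6365, 6594 and 5708 at 1 year, against 4009, 3865, 3982 and 3851 at 2 months (0.68 ± 0.10, SE, limma adjusted p = 4.91e-05). For both genes no library of 2 months reached the lowest of 1 year. Kit, the stem cell factor receptor, rose by 0.41 ± 0.11 (SE, limma adjusted p = 0.0124), and the adhesion molecule Esam by 0.64 ± 0.14 (SE, limma adjusted p = 0.00368). The call of Kit ended in both of these fits and that of Esam with the covariate. Cd34, a sialomucin that is low on long-term mouse HSCs, fell by 0.49 on the log2 scale (SE 0.14, limma adjusted p = 0.0265), with 4676, 4992, 5508, 5083 and 4226 at 1 year, against 7923, 5766, 8851 and 5416 at 2 months. One library of each group crossed over, and the call ended without WT 2 months replicate 1 or 3 or WT 1 year replicate 5. Cd48, a SLAM family receptor absent from HSCs and present on progenitors, had 55.97, 18.99, 35.6, 23.4 and 12.4 at 1 year, against 127, 1444, 70.7 and 1153 at 2 months (log2 change -3.72 ± 0.84, SE, limma adjusted p = 0.00389), and the call ended without WT 2 months replicates 2 and 4, the highest young libraries. Ly6a (Sca-1) was at 0.21 ± 0.11 (SE, limma adjusted p = 0.240).

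Among 26 transcription factors of HSCs, 6 rose (23.1%, against 6.12% of all genes) and 0 fell (median log2 change 0.21). Among those that rose were Runx1t1, a corepressor known as ETO (1.16 ± 0.20, SE), Sox18, a SoxF factor of endothelium (0.74 ± 0.18, SE), Mycn, a Myc family member (0.72 ± 0.17, SE), Mllt3, a reader of histone acylation that maintains HSCs (0.46 ± 0.09, SE), and Prdm16 (0.46 ± 0.13, SE), with limma adjusted p-values of at most 0.0186. Mycn had 13675, 11113, 14311, 15582 and 18455 normalized counts at 1 year, against 8722, 9813, 6707 and 10211 at 2 months. Of the 26 factors, 4 rose and 1 fell without WT 2 months replicates 2 and 4, and 3 rose and 0 fell with the myeloid covariate. Factors at the core of HSC identity did not pass: Hlf (0.22 ± 0.10, SE, limma adjusted p = 0.193), Mecom (0.20 ± 0.13, SE, limma adjusted p = 0.356), Meis1 (0.10 ± 0.06, SE, limma adjusted p = 0.297) and Gata2 (0.27 ± 0.16, SE, limma adjusted p = 0.321). Of 18 tested HoxA and HoxB genes, 4 rose (22.2%, against 6.12% of all genes), all of the HoxB cluster on chromosome 11. The 1 that fell (5.56%, against 4.61% of all genes) was Hoxa9, at -0.30 ± 0.09 (SE, limma adjusted p = 0.0261). Hoxb9 had 138, 177, 203, 109 and 110.3 at 1 year, against 52.1, 25.3, 24.4 and 18.4 at 2 months (2.32 ± 0.36, SE, limma adjusted p = 6.22e-05), and Hoxb6 rose by 1.52 ± 0.29 (SE, limma adjusted p = 0.000803). The calls of Hoxb5 (0.52 ± 0.16, SE), Hoxb7 (1.93 ± 0.63, SE) and Hoxa9 were lost in 7, 15 and 9 of the alternative settings.

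Of 23 tested integrin genes, 2 rose and 2 fell (8.70% each way, near the 6.12% and 4.61% of all genes). Itgb3, the beta chain of the platelet fibrinogen receptor, had 5531, 4483, 3692, 4482 and 5764 at 1 year, against 1566, 1273, 1696 and 1306 at 2 months (1.71 ± 0.13, SE, limma adjusted p = 2.31e-10). Its alpha chain partner Itga2b was at 0.54 ± 0.19 (SE, limma adjusted p = 0.0726). Of 20 platelet genes, which part of the HSC pool is known to express, 2 rose (10%, against 6.12% of all genes) and 1 fell (5%, against 4.61%). Clec1b, a platelet receptor for podoplanin (1.28 ± 0.30, SE, limma adjusted p = 0.00547), and Plek, a platelet signalling protein (0.79 ± 0.22, SE, limma adjusted p = 0.0185), rose. The call of Clec1b was lost in 1 alternative setting and that of Plek in 5, among them those without WT 2 months replicate 2 or 4. The single member that fell was Gata1, the erythroid and megakaryocytic factor, with 310.1, 194.5, 345, 208 and 168 at 1 year, against 926, 753, 1013 and 507 at 2 months (-1.71 ± 0.33, SE, limma adjusted p = 0.000715).

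Lymphoid priming genes, which mark the first steps towards B and T cells, fell in 6 of 20 members (30%, against 4.61% of all genes), with a median of -0.52. The 1 member that rose (5%, against 6.12% of all genes) was Tcf4, an E protein (0.36 ± 0.12, SE, limma adjusted p = 0.0424). With no filter, with quantile normalization, with plain eBayes or with the replicate block, 0 members of this list rose. Flt3, a cytokine receptor of lymphoid-primed progenitors, had 685, 308, 321, 384.5 and 284 at 1 year, against 1140, 702, 1385 and 1039 at 2 months (-1.46 ± 0.34, SE, limma adjusted p = 0.00483). Cd69, an early activation receptor, had 201, 175, 365, 248 and 218 at 1 year, against 738, 545, 1342 and 475 at 2 months (-1.60 ± 0.34, SE, limma adjusted p = 0.00201). Neither gene overlapped between the groups. The fit that leaves out WT 2 months replicates 2 and 4 kept 2 falls among the 20 members, with a median of -0.05. With the myeloid covariate 2 fell and 0 rose, and the list median was 0.11, of the opposite sign. Of 16 genes of fetal HSCs and imprinted loci, Ndn (0.46 ± 0.12, SE) rose and Gnas (-0.46 ± 0.11, SE) fell, with limma adjusted p-values of at most 0.0117. These are 6.25% of the list each way, near the 6.12% and 4.61% of all genes. Lin28b, the RNA-binding protein of fetal blood, was at -2.50 ± 0.88 (SE, limma adjusted p = 0.0660).

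Many genes of mitosis and DNA replication fell at 1 year. Of 34 genes of mitosis, 18 fell and 0 rose (52.94% of the list, against 4.61% of all genes), all 34 had a negative change, and the median was -0.67. Of 35 DNA replication genes, 17 fell (48.6%) and 0 rose, all 35 had a negative change, and the median was -0.46. Mki67, a protein of dividing cells, had 1911, 1587, 1602, 1294 and 1643 normalized counts at 1 year, against 2788, 3610, 3060 and 3447 at 2 months (-1.01 ± 0.15, SE, limma adjusted p = 5.38e-05). Birc5 (survivin), of the chromosomal passenger complex, had 811, 765, 783, 656 and 654.5 at 1 year, against 1466, 1843, 1348 and 1786 at 2 months (-1.13 ± 0.15, SE, limma adjusted p = 7.29e-06). In both genes every library of 1 year lay below every library of 2 months. The centromeric histone Cenpa (-0.99 ± 0.18, SE), the cytokinesis factor Ect2 (-0.99 ± 0.21, SE) and the topoisomerase Top2a (-0.72 ± 0.16, SE) fell as well, with limma adjusted p-values of at most 0.00272.

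On the replication side, Lig1, the ligase that joins Okazaki fragments, had 1766, 1796, 1639, 1867 and 1812 at 1 year, against 3074, 3394, 3057 and 3570 at 2 months (-0.88 ± 0.14, SE, limma adjusted p = 6.22e-05). The sliding clamp Pcna fell by 0.48 on the log2 scale (SE 0.09), the helicase factors Gins2 and Mcm10 by 0.68 (SE 0.14) and 1.14 (SE 0.27), and Orc6 of the origin recognition complex by 0.50 (SE 0.11), with limma adjusted p-values of at most 0.00575. When WT 2 months replicates 2 and 4 were left out, 4 of the 34 mitosis genes and 5 of the 35 replication genes passed, while the medians were -0.57 and -0.43. The regulators of G1 did not move one way. Ccnd1 (cyclin D1) had 2419, 2951, 2967, 2865 and 2752 at 1 year, against 1453, 1499, 1406 and 1623 at 2 months (0.90 ± 0.15, SE, limma adjusted p = 0.000149). The kinase inhibitor Cdkn2c (1.199 ± 0.26, SE) and the retinoblastoma gene Rb1 (1.00 ± 0.21, SE) rose with it, limma adjusted p = 0.00233 and 0.00195. Ccne1 (cyclin E1, -1.25 ± 0.28, SE) and E2f1 (-1.01 ± 0.26, SE), which drive entry into S phase, fell, limma adjusted p = 0.00294 and 0.0105. Cdk6, whose product sets the exit from quiescence, was at -0.14 ± 0.12 (SE, limma adjusted p = 0.541), and the inhibitor Cdkn1c (p57) at -0.18 ± 0.27 (SE, limma adjusted p = 0.755).

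The promoters of mitosis genes are known to hold CCAAT boxes and a cell cycle homology element. Of the 28 tested mitosis genes with a RefSeq promoter (GRCm38.p6), 21 (75%) held CCAAT on either strand in the 250 bases before the start, against 37.5% of all 27025 genes with one, and 9 (32.1%) held TTTGAA on either strand, against 18.3%. For replication genes, 18 of 28 (64.3%) held CCAAT, and 6 of 28 (21.4%) held TTTCCCGC, TTTGGCGC or their complements, the letters bound by E2F, against 1.51% of all genes. Among the members that passed, CCAAT stood in 10 of 14 mitosis genes (71.4%) and 8 of 15 replication genes (53.3%). TTTGAA stood in 5 of these 14 (35.7%), and the E2F letters in 3 of these 15 (20.0%). Birc5 and Lig1, which also fell, held none of these letters. The printed sequences of Mki67 (chr7:135716380-135716539, minus strand) and Cenpa (chr5:30666726-30666885, plus strand) are shown because both genes fell and each holds paired boxes. Both run 5′ to 3′ along the gene's own strand, with capitals on CCAAT, its complement ATTGG and TTTGAA. A match is a run of letters and not a measured binding site.
Mki67: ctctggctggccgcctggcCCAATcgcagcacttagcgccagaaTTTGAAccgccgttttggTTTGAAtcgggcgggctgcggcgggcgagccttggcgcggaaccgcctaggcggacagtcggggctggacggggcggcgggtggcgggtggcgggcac
Cenpa: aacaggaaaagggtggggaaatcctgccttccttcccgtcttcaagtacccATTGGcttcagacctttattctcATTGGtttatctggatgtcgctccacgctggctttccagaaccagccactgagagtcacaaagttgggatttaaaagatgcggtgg

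Among genes of antigen presentation, some rose at 1 year. Of 15 MHC class II genes, 6 rose (40%, against 6.12% of all genes) and 1 fell (6.67%, against 4.61%), with a median of 0.61. H2-Eb1, a class II beta chain, had 3973, 2877, 7611, 4918 and 5937 normalized counts at 1 year, against 2205, 1152, 2201 and 1128 at 2 months (1.60 ± 0.30, SE, limma adjusted p = 0.000744). Cd74, the invariant chain, had 11996, 5476, 13358, 10971 and 13297 at 1 year, against 5221, 4017, 5413 and 3363 at 2 months (1.25 ± 0.25, SE, limma adjusted p = 0.00156). In both genes WT 1 year replicate 2 was the lowest of its group and still above the highest young library, though by little for Cd74. H2-Ab1 (1.12 ± 0.23, SE) and the peptide loading subunit H2-DMb1 (0.61 ± 0.13, SE) rose, limma adjusted p = 0.00200 and 0.00185. Ciita, the master activator of these genes, was at 0.73 ± 0.25 (SE, limma adjusted p = 0.0625). Ctss, the protease that trims Cd74, went the other way, with 279, 178, 295, 213 and 188 at 1 year, against 806, 1784, 953 and 1603 at 2 months (-2.43 ± 0.31, SE, limma adjusted p = 2.77e-06). Without WT 2 months replicates 2 and 4, 0 of the 6 rises passed, the limma adjusted p-values of H2-Eb1 and Cd74 being 0.0696 and 0.0745, and the list median was 0.35.

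Of 20 genes of MHC class I and the immunoproteasome, 9 rose (45%, against 6.12% of all genes) and 0 fell, by small steps (median 0.19). H2-D1, a classical class I heavy chain, had 118869, 123670, 150996, 137906 and 131165 at 1 year, against 98128, 94855, 110783 and 96670 at 2 months (0.40 ± 0.07, SE, limma adjusted p = 0.000282). The nonclassical H2-T22 and H2-T23 rose by 0.43 ± 0.08 each (SE), and Erap1, the peptidase that trims class I peptides, by 0.56 ± 0.12 (SE), with limma adjusted p-values of at most 0.00172. The inducible proteasome subunits Psmb8, Psmb9 and Psmb10 were at 0.00 to 0.16 and did not pass. H2 genes resemble one another and can share reads, so single H2 values are uncertain. Of the 20 class I and immunoproteasome genes, 3 rose without WT 2 months replicates 2 and 4, where the calls of H2-T23 and Erap1 ended, and 3 with the myeloid covariate.

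Interferon gamma-induced genes rose in 7 of 23 members (30.4%, against 6.12% of all genes), with a median of 0.37. The 1 member that fell (4.35%, against 4.61% of all genes) was Irf8, a myeloid factor (-2.12 ± 0.60, SE, limma adjusted p = 0.0234). Irgm2, an immunity-related GTPase, had 4654, 2894, 4927, 4371 and 5038 at 1 year, against 2588, 2479, 1963 and 2708 at 2 months (0.83 ± 0.15, SE, limma adjusted p = 0.000297). Tgtp2, a GTPase of the same family, had 6234, 4668, 8148, 7218 and 7824 at 1 year, against 4493, 4167, 3872 and 3906 at 2 months (0.71 ± 0.13, SE, limma adjusted p = 0.000338). As for the class II genes, WT 1 year replicate 2 lay nearest to the young libraries. Tgtp1, which can share reads with Tgtp2, rose by 0.71 ± 0.15 (SE), Ifi47 by 0.47 ± 0.10 (SE) and the guanylate-binding protein Gbp2 by 0.48 ± 0.11 (SE), with limma adjusted p-values of at most 0.00319. Of 27 genes stimulated by type I interferon, 0 rose and 1 fell (3.70%, against 4.61% of all genes), with a median of 0.03. The gene that fell was Oas2 (-1.45 ± 0.41, SE, limma adjusted p = 0.0205). The call of Oas2 was lost in 6 alternative settings, among them those without WT 1 year replicate 3, WT 2 months replicate 2 or WT 2 months replicate 4. Without WT 2 months replicates 2 and 4, 4 of the 23 interferon gamma-induced genes rose.

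Interferon-responsive promoters are known to hold an ISRE or a GAS element. Of the 16 tested interferon gamma-induced genes with a promoter in the table, 12 (75%) held AAANNGAAA on either strand, against 10.8% of all genes, and 9 (56.2%) held the palindrome TTCNNNGAA, against 8.13%. The 3 called genes with the smallest p are printed because both motifs lie side by side in each. They are Irgm2 (chr11:58214817-58214976, plus strand), Tgtp2 (chr11:49064213-49064372, minus strand) and Tgtp1 (chr11:48992247-48992406, minus strand), all from GRCm38.p6, 5′ to 3′ along the gene, with the matches in capitals. The palindrome began 75, 81 and 88 bases before the start, and the AAANNGAAA match 63, 69 and 76 bases before it.
Irgm2: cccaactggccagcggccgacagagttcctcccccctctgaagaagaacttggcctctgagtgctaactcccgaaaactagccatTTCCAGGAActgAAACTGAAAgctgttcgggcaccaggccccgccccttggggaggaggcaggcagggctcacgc
Tgtp2: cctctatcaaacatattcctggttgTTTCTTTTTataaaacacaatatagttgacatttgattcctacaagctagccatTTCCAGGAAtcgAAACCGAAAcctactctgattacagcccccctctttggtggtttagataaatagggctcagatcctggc
Tgtp1: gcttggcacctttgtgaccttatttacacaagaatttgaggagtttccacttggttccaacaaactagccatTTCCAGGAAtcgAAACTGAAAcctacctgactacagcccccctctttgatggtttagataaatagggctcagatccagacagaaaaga
Class II promoters are known for a CCAAT (Y) box downstream of an X box. CCAAT stood in 10 of 11 class II genes (90.9%) with a promoter, and H2-Eb1 (chr17:34305707-34305866, plus strand) and H2-DMb1 (chr17:34153031-34153190, plus strand) are shown because both hold it within 61 bases of the start, as ATTGG.
H2-Eb1: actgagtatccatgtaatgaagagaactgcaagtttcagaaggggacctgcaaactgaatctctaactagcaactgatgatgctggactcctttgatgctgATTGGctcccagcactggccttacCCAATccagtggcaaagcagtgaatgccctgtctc
H2-DMb1: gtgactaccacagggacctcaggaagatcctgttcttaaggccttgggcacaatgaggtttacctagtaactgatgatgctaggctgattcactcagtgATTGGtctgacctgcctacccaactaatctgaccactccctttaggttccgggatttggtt

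Inflammatory signalling genes moved singly. Il1r1 itself had 243, 267, 282, 187 and 180.0 normalized counts at 1 year, against 256, 142, 182 and 137 at 2 months, a change of 0.39 ± 0.26 (SE, limma adjusted p = 0.394) in overlapping groups. Of 24 genes of the interleukin-1 family and its adaptors, 1 rose and 1 fell (4.17% each way, near the 6.12% and 4.61% of all genes). Irak3, an inhibitor of this pathway, rose (0.51 ± 0.12, SE, limma adjusted p = 0.00741), and Il1rl1, the receptor of interleukin-33, fell (-3.52 ± 0.69, SE, limma adjusted p = 0.000949). The call of Irak3 was lost in 2 alternative settings and that of Il1rl1 in 1. Of 22 genes of NF-kB and its targets, 4 fell (18.2%, against 4.61% of all genes) and 1 rose (4.5%, against 6.12%). Rel, the c-Rel subunit, had 599, 524, 353, 599 and 395 at 1 year, against 1305, 912, 1608 and 1086 at 2 months (-1.31 ± 0.18, SE, limma adjusted p = 1.46e-05), while the other subunits Rela, Relb, Nfkb1 and Nfkb2 did not pass. Bcl3, an atypical inhibitor family member, had 475, 259, 344.5, 540.5 and 423 at 1 year, against 131, 174, 183 and 182 at 2 months (1.25 ± 0.23, SE, limma adjusted p = 0.000583). The target genes Tnf (-1.75 ± 0.44, SE), Cxcl2 (-2.30 ± 0.70, SE) and Cd83 (-4.26 ± 1.18, SE) fell from low levels, limma adjusted p = 0.00832, 0.0330 and 0.0183. The call of Cxcl2 was lost in 10 alternative settings, that of Cd83 in 5 and that of Tnf in 2.

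Of 26 cytokine receptors, 5 rose (19.2%, against 6.12% of all genes) and 2 fell (7.69%, against 4.61%). Osmr, a receptor subunit for oncostatin M, had 549, 618, 847, 573 and 690.1 at 1 year, against 65.4, 21.5, 57.99 and 34.1 at 2 months (3.95 ± 0.53, SE, limma adjusted p = 7.61e-06). No library of 2 months came near those of 1 year. Il2rg, the common gamma chain, rose by 0.63 ± 0.11 (SE) and Il27ra by 0.56 ± 0.13 (SE), limma adjusted p = 0.000219 and 0.00501. Csf2rb, the common beta chain for interleukin-3 and GM-CSF, had 440.1, 292, 285, 321 and 479.5 at 1 year, against 1042, 1827, 953 and 1537 at 2 months (-1.86 ± 0.34, SE, limma adjusted p = 0.000438). Of the 26 receptors, 5 rose and 1 fell without WT 2 months replicates 2 and 4, and 2 rose and 0 fell with the myeloid covariate. The calls of Csf2rb and Il27ra ended with the covariate, and that of Il27ra also without WT 1 year replicates 2 and 3.

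Immediate early genes, which respond to signals and to cell handling within minutes, differed between libraries of 1 group more than between the ages. Fos had 18674, 122962, 127495, 119381 and 9057 at 1 year, against 94671, 45545, 131824 and 43379 at 2 months. The libraries WT 1 year replicates 1 and 5 stood lowest, and their list levels were 10.4 and 9.68 where the other three libraries of 1 year were at 11.6 to 11.8. Of 24 members, 0 rose and 2 fell (8.33%, against 4.61% of all genes), Ier5 (-1.42 ± 0.34, SE, limma adjusted p = 0.00588) and Dusp2 (-0.93 ± 0.25, SE, limma adjusted p = 0.0146). Of 21 heat shock chaperones and cofactors, a list that includes the mitochondrial pair Hspe1 and Hspd1, 3 fell (14.3%, against 4.61% of all genes) and 0 rose. Hspa1a, an inducible Hsp70 that can share reads with Hspa1b, had 170.3, 102, 707, 357 and 363 at 1 year, against 3650, 16176, 3427 and 15282 at 2 months (-4.75 ± 0.84, SE, limma adjusted p = 0.000574). The highest Hspa1a values were in WT 2 months replicates 2 and 4, and replicates 1 and 3 were still well above every library of 1 year. Hspe1, the mitochondrial Hsp10, fell by 0.77 on the log2 scale (SE 0.15, limma adjusted p = 0.000905), while the constitutive Hspa8 was at -0.05 ± 0.17 (SE, limma adjusted p = 0.898).

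Changes of housekeeping genes were small. Of 51 nuclear subunits of the respiratory chain, 18 fell (35.3%, against 4.61% of all genes) and 0 rose, with a median of -0.25. Cox7c and Cox6c of complex IV fell by 0.60 (SE 0.12) and 0.56 (SE 0.11) on the log2 scale, and Ndufa5 of complex I by 0.59 (SE 0.12), with limma adjusted p-values of at most 0.00142. Of 75 cytosolic ribosomal proteins, 12 fell (16%, median -0.22), and of 50 mitochondrial ribosomal proteins, 5 fell (10%). In each of these 3 lists, 1 gene passed without WT 2 months replicates 2 and 4. Proteasome subunits (31) and the 13 transcripts of the mitochondrial genome gave 0 calls with limma, with 6 and 2 at an unadjusted p under 0.05. Sterol synthesis genes (24) gave 0 calls with limma, with 2 at an unadjusted p under 0.05.

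Among regulators of chromatin and DNA methylation, 1 of 21 rose (4.76%, against 6.12% of all genes) and 4 fell (19.05%, against 4.61%). Ezh1, the Polycomb methyltransferase of resting cells, rose by 0.69 ± 0.11 (SE, limma adjusted p = 0.000108), and Hmgb2, a chromatin protein of dividing cells, fell by 1.06 on the log2 scale (SE 0.14, limma adjusted p = 9.60e-06). The falls of Satb1, Kdm6b and Dnmt1 were lost in 11, 16 and 16 of the alternative settings. Dnmt3a was at -0.23 ± 0.14 (SE, limma adjusted p = 0.357), and Tet2 at -0.21 ± 0.24 (SE, limma adjusted p = 0.660). Of 20 p53 targets, Sesn1 (0.50 ± 0.10, SE), Sesn2 (0.70 ± 0.19, SE) and Perp (1.25 ± 0.26, SE) rose, limma adjusted p of at most 0.0192. They are 15% of the list, against 6.12% of all genes. The call of Sesn2 was lost in 6 alternative settings, and those of Sesn1 and Perp with the myeloid covariate alone. The cell cycle inhibitor Cdkn1a was at 0.08 ± 0.55 (SE, limma adjusted p = 0.957). Of 14 genes induced by glucocorticoids, Txnip, an inhibitor of glucose uptake, rose by 0.56 ± 0.13 (SE) and Pik3ip1 by 0.32 ± 0.09 (SE), limma adjusted p = 0.00667 and 0.0197. These are 14.3% of the list, against 6.12% of all genes. The call of Txnip was lost in 3 alternative settings and that of Pik3ip1 in 5. Both were lost without WT 2 months replicates 2 and 4 and with the myeloid covariate.

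**Figure D3:**
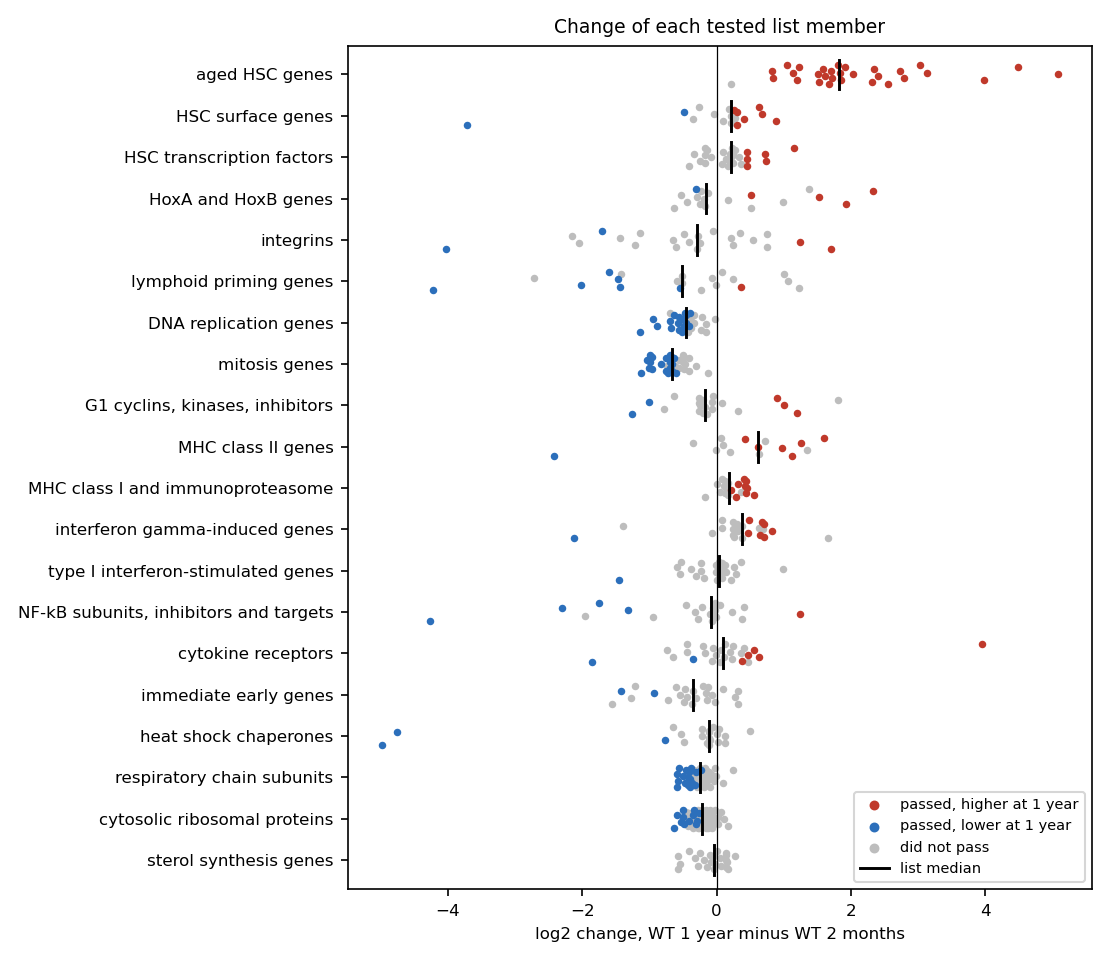
Log2 change between WT 1 year and WT 2 months (horizontal axis) of each tested member of 20 gene lists (vertical axis). Points are genes, red where they passed and were higher at 1 year, blue where they passed and were lower, and grey otherwise, and the black bar is the list median. Aged HSC genes lie to the right (median 1.82), DNA replication and mitosis genes lie wholly to the left (medians -0.46 and -0.67), and sterol synthesis genes hold 0 that passed.

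The largest falls were of genes that mature myeloid cells make. The 12 largest among non-overlapping named genes whose mean reached 100 normalized counts in either group were Mmp8, Chil3, Ly6g, Mefv, Cd300lb, Retnlg, Ifitm6, Cx3cr1, Mcemp1, Gpr141, S100a9 and Hp, with log2 changes of -6.87 to -5.50. All 12 of these calls were lost with the myeloid covariate. That of Retnlg was lost in 10 settings in all, that of Cd300lb in 5, and those of Mmp8 and Ly6g with the covariate alone. The covariate is the mean level of the neutrophil markers and of granule genes of myeloid progenitors. Mmp8, Chil3, Ly6g, Retnlg and S100a9 are among the genes averaged, so their losses with it were partly built in. Ly6g, the surface marker of neutrophils, had 0.847, 0, 0, 0.892 and 0.827 normalized counts at 1 year, against 54.1, 99.4, 217 and 107 at 2 months (-6.21 ± 1.22, SE, limma adjusted p = 0.00101). S100a8, a subunit of the neutrophil protein calprotectin, had 682, 14.8, 38.7, 222 and 243 at 1 year, against 2929, 3488, 9581 and 3221 at 2 months (-5.15 ± 1.19, SE, limma adjusted p = 0.00628). Of 14 neutrophil markers, 7 fell (50%, against 4.61% of all genes) and 1 rose (7.14%, against 6.12%), Padi4, which HSCs also express (0.53 ± 0.12, SE, limma adjusted p = 0.00446). Their summed normalized counts were 4953 to 6986 at 1 year and 11566 to 45736 at 2 months. In bulk RNA, fewer cells of a type and less RNA of that type in each cell cannot be told apart.

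Markers of other lineages moved in part of the libraries. Mpo, the myeloperoxidase of granulocyte precursors, had 2045, 20.5, 588, 1832 and 35.3 at 1 year, against 391.8, 73276, 1159 and 60867 at 2 months, and the high values of WT 2 months replicates 2 and 4 stood alone (-4.58 ± 2.20, SE, limma adjusted p = 0.210). The same libraries held the highest levels of the monocyte and the mast cell lists. Of 12 granule genes of myeloid progenitors, 2 rose and 2 fell (16.7% each way, against 6.12% and 4.61% of all genes). Of 13 monocyte markers 2 fell (15.4%), and of 8 mast cell and basophil markers 2 fell (25%). The calls of the granule genes Csf3r, Prtn3, Igsf6 and Plac8 were lost in 14, 5, 3 and 2 alternative settings. Those of the monocyte markers Ccr2 and Cx3cr1 were lost in 15 and 3, and those of Prg2 and Hdc of the mast cell list in 10 and 3. The mean log2 level of the erythroid markers was 6.31 to 8.41 at 1 year and 8.56 to 9.63 at 2 months, while their summed normalized counts overlapped, at 51579 to 67319 at 1 year and 55684 to 59146 at 2 months. Of 14, 6 fell (42.9%) and 1 rose (7.14%). Klf1, the erythroid factor, had 294, 128, 109.8, 118 and 158.5 at 1 year, against 652.5, 651, 784 and 598 at 2 months (-2.14 ± 0.42, SE, limma adjusted p = 0.00103). B and plasma cell markers gave 0 calls among 14 with limma, with 0 at an unadjusted p under 0.05.

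Among 10 tested markers of T and NK cells, Klrb1c (NK1.1) rose, with 1729, 1563, 2018, 1717 and 2572 at 1 year, against 306, 622, 300.2 and 519 at 2 months (2.18 ± 0.21, SE, limma adjusted p = 1.64e-08), and Nkg7 fell by 1.68 on the log2 scale (SE 0.30, limma adjusted p = 0.000290). Each way this was 10% of the list, against 6.12% and 4.61% of all genes. The T cell receptor genes Cd3d, Cd3e, Trac and Trbc2 did not pass. Of 10 markers of endothelium and stroma, the VEGF receptor Kdr rose (1.41 ± 0.26, SE, limma adjusted p = 0.000544) and the leptin receptor Lepr fell (-1.04 ± 0.31, SE, limma adjusted p = 0.0298, lost in 10 alternative settings), while Pecam1 was at -0.0022 ± 0.12 (SE, limma adjusted p = 0.995). The calls were again 10% of the list each way.

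**Figure D4:**
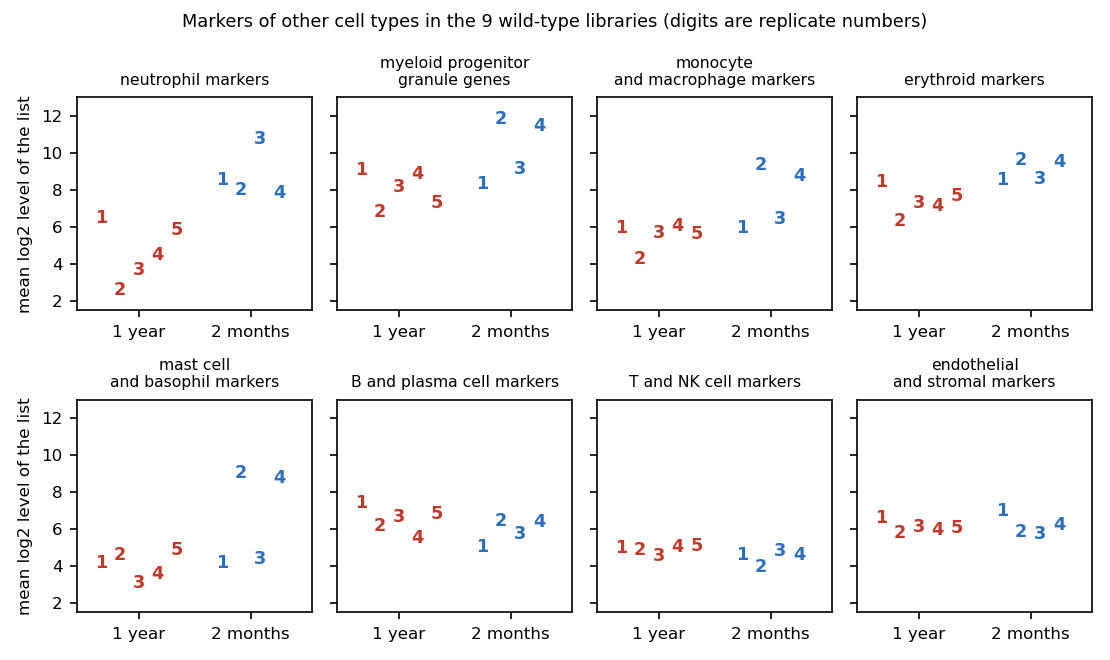
Mean log2 level of 8 lists of markers of other cell types (vertical axis, log2(normalized count + 1) averaged over the list, not starting at 0) in the libraries of WT 1 year and WT 2 months, each drawn as its replicate number. Neutrophil markers (2.58 to 6.47 at 1 year, 7.82 to 10.8 at 2 months) and erythroid markers do not overlap in mean log2 level, and replicates 2 and 4 of 2 months stand apart in the granule, monocyte and mast cell lists.

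Without WT 2 months replicates 2 and 4, 748 genes passed, 538 higher and 210 lower. Of the 1037 rises, 463 still passed and 1036 kept their sign, and of the 781 falls, 176 still passed and 779 kept their sign. With the mean level of the myeloid markers as a covariate, 682 genes passed, 487 higher and 195 lower, including 446 of the rises and 179 of the falls, and all 1818 kept their sign. Myeloid marker levels moved with age in these libraries, and their part in the changes of single genes was not tested. Without the deepest libraries, WT 1 year replicates 2 and 3, 1018 genes passed, 602 higher and 416 lower.

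The change between 1 year and 2 months was set beside the same change in IL1R1 KO and germ-free mice, which have controls of their own at 2 months. Il1r1 had 232, 241, 403 and 262 normalized counts in the libraries labelled IL1R1 KO at 1 year and 186, 247 and 261.5 at 2 months, no lower than in WT. This whole-gene value does not show whether part of the gene is deleted, and directions in the KO libraries rest on the label. In libraries labelled IL1R1 KO, 340 genes (2.0%) passed between 1 year and 2 months, 236 higher (1.39%) and 104 lower (0.613%). In germ-free libraries 356 (2.1%) passed, 218 higher (1.29%) and 138 lower (0.814%). Both comparisons rest on fewer libraries than the one in WT. The numbers that passed and the overlaps below therefore do not compare the size of the change with WT. Of the 1037 genes that rose in WT, 161 also rose in IL1R1 KO (15.5% of the WT list, 68.2% of the KO list) and 167 in germ-free mice (16.1% and 76.6%). Of the 781 that fell in WT, 60 also fell in IL1R1 KO (7.68% and 57.7%) and 48 in germ-free mice (6.15% and 34.8%). The sign was shared by 84.9% and 84.0% of the WT rises and by 85.9% and 78.5% of the WT falls, against 48.7% to 50.7% of all genes with that sign. Median log2 changes of the WT rises were 0.35 in IL1R1 KO and 0.42 in germ-free mice, against 0.82 in WT, where the genes were chosen.

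The difference of the age changes was then tested gene by gene. Between IL1R1 KO and WT, 6 genes passed with limma (0.0354% of 16958), 1 with a higher (0.0059%) and 5 with a lower age change (0.0295%) in IL1R1 KO. Between germ-free and WT, 0 genes passed (1794 at an unadjusted p under 0.05), with limma adjusted p-values of at least 0.0830.

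Clca3a1, the top gene of the WT comparison, had the smallest p also here. In IL1R1 KO it had 3464, 3427, 3298 and 3347 normalized counts at 1 year and 1560, 1100 and 1730 at 2 months, a change of 1.24 ± 0.14 (SE, limma adjusted p = 2.49e-06). All 4 KO libraries of 1 year lay below all 5 of WT (5874 to 7223). The difference of the changes, IL1R1 KO minus WT, was -1.32 ± 0.18 (SE, limma adjusted p = 0.000888), and it passed in all 26 alternative settings. At 2 years the KO libraries held 5466, 6215, 5482, 5809 and 6257, and the WT libraries 6009, 6919, 6923 and 7434. Germ-free libraries held 6272 and 7188 at 1 year and 979, 906 and 873 at 2 months, a change of 2.87 ± 0.16 (SE, limma adjusted p = 1.28e-12), with a difference from WT of 0.31 ± 0.20 (SE, limma adjusted p = 0.599).

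Rel and Slc24a5, a cation exchanger of pigment cells, also differed. Rel had 870, 823, 792 and 659 in IL1R1 KO at 1 year and 682.5, 546 and 704.5 at 2 months, a change of 0.29 ± 0.21 (SE, limma adjusted p = 0.585) where WT fell, and the difference was 1.60 ± 0.28 (SE, limma adjusted p = 0.0181). At 2 months the 3 KO libraries lay below all 4 of WT (912 to 1608), and at 1 year all 4 lay above all 5 of WT. Slc24a5 had 2366, 1901, 2755 and 2445 in IL1R1 KO at 1 year and 2047, 2104 and 1822 at 2 months, against 2544, 2834, 3071, 2798 and 2957 in WT at 1 year and 1308, 1202, 960.5 and 1033 at 2 months. Its change was 0.24 ± 0.14 in IL1R1 KO and 1.34 ± 0.13 in WT, and the difference was -1.10 ± 0.19 (SE, limma adjusted p = 0.0181). All 3 young KO libraries lay above the 4 young WT ones, and at 1 year the genotypes overlapped.

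The other genes that passed were Rsrp1, an arginine and serine rich protein (-0.90 ± 0.16, SE, limma adjusted p = 0.0181), Gm14391 (-1.97 ± 0.36, SE, limma adjusted p = 0.0215) and Wif1, an inhibitor of Wnt ligands (-5.52 ± 1.05, SE, limma adjusted p = 0.0404). Wif1 was named after its values were seen: it had 47.6, 11.1 and 39.9 in IL1R1 KO at 2 months and was listed at 0 in 26 of the other 27 libraries. Rel, Slc24a5, Rsrp1, Gm14391 and Wif1 passed in 22, 21, 20, 21 and 12 of their alternative settings, Wif1 of 25 and the others of 26.

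Few genes passed between 2 years and 1 year. Between WT 2 years and WT 1 year, 2 genes passed (0.0118%), both immunoglobulin variable segments, Igkv4-55 and Ighv14-3, which are products of B cells and can share reads with other segments. Selp held 13203, 14874, 15263 and 18732 normalized counts at 2 years, against 12815 to 17863 at 1 year, with a difference of 0.03 ± 0.16 (SE, limma adjusted p = 1.00). Gpr183 differed by -0.05 ± 0.25 (SE, limma adjusted p = 1.00), the chromatin-associated stress gene Nupr1 by 0.18 ± 0.17 (SE, limma adjusted p = 1.00), and the aged HSC list stood at 11.22 ± 0.178 at 2 years and 11.25 ± 0.0883 at 1 year (SD, n = 4 and 5). Mki67 had 2448, 1337, 2312 and 2036 at 2 years, a difference from 1 year of 0.31 ± 0.15 (SE, limma adjusted p = 1.00). Levels of some lists that fell at 1 year lay higher again at 2 years. The neutrophil list stood at 7.55 ± 2.52 at 2 years, 4.61 ± 1.58 at 1 year and 8.78 ± 1.35 at 2 months (SD, n = 4, 5 and 4). The erythroid list stood at 8.80, 7.36 and 9.08, while the DNA replication list stood at 10.81, 10.76 and 11.24. List levels at 2 years were not tested. The comparison shares the libraries of 1 year with the one described above, and a p that misses the threshold does not show equal levels.

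**Figure D5:**
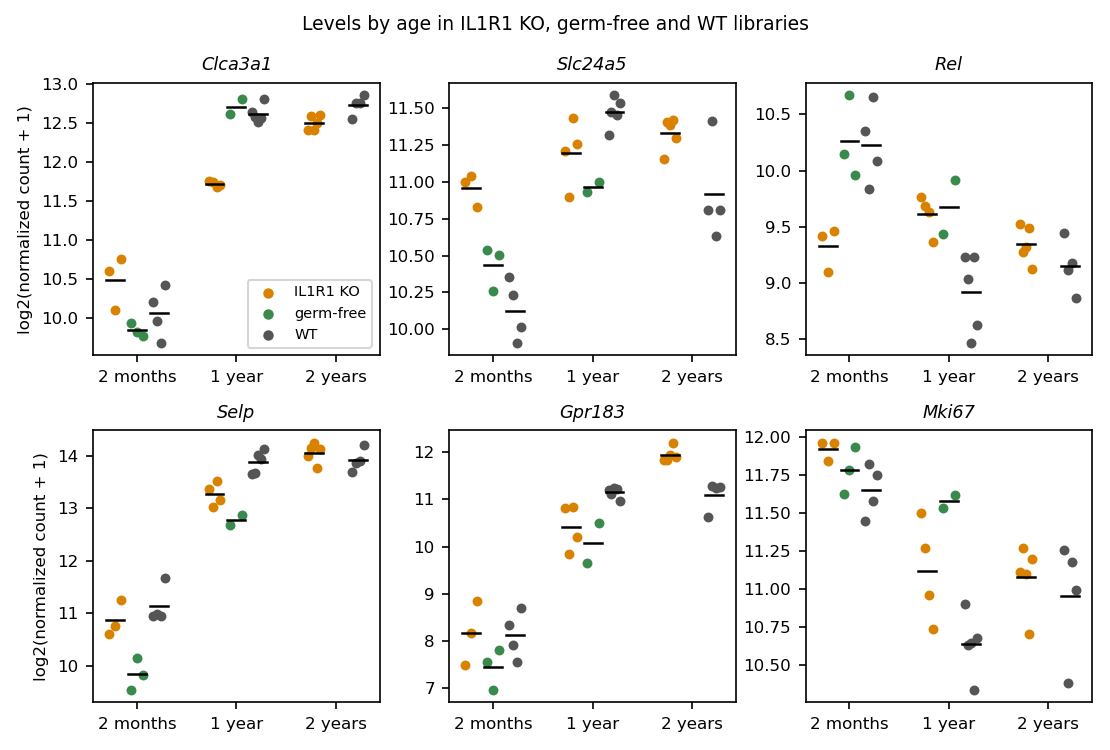
Levels on the log2(normalized count + 1) scale (vertical axes, not starting at 0) at 2 months, 1 year and 2 years in IL1R1 KO, germ-free and WT libraries, with points for libraries and bars for means. Clca3a1 at 1 year lies at 3298 to 3464 normalized counts in IL1R1 KO, below WT (5874 to 7223). At 2 years the ranges overlap, at 5466 to 6257 in IL1R1 KO and 6009 to 7434 in WT. The WT libraries with 6919, 6923 and 7434 lie above every KO library of that age, and this difference was not tested.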

How the data were processed

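RNA of sorted bone marrow HSCs was sequenced as single-end reads of 100 bases after full-length (Smart-seq2) amplification, per the labels' protocols. The GRCm38 (mm10) build, Salmon 1.2.0.0, cutadapt 2.10, DESeq2 1.26.0 and FastQC 0.11.9 are the names in the submitters' processing notes, which give no roles. The deposited table holds the authors' normalized counts, treated as a signal that is already scaled between libraries, for 35727 genes in 30 libraries. No source used here says how transcript estimates were summed per gene. Full-length libraries of this kind do not mark strand and have no molecular identifiers.

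Genes reaching 10 in 3 or more of the 30 libraries, 16958 in all, were tested on the log2(value + 1) scale. The test was limma 3.58.1 (R 4.3.3; group means of all 30 libraries, eBayes with trend and robust settings), two-sided, with Benjamini-Hochberg adjustment over all tested genes and a threshold of 0.05. Fold changes of low genes are understated on this scale. The fit was also run on simulated data with the means and spreads of these libraries and normal noise, and the outcome is not given here. Depth was estimated from the spacing of the lowest values, which gave whole reads for too few of them to run a count test. No pair of libraries held identical values.

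The members and gene lists were chosen with earlier results of these data known. Named genes were the 12 largest rises and falls among non-overlapping called genes with a mean of at least 100 in either group, the 8 largest with a mean of at least 2000, up to 5 called members of each list by p, a fixed set of HSC genes, and the 5 smallest p of each further comparison. Genes named only by Gm or Rik numbers, pseudogenes and receptor segments were left out of the first 2 parts. Other genes named from a list, such as Prdm16, Tcf4, Vwf, Irf8, Plcl1 and those that did not pass, were added after their values were seen. A few named genes are not reported here. Promoters came from a RefSeq table (GRCm38.p6) and were matched by symbol for 28 of 34 mitosis genes, 28 of 35 replication genes, 16 of 23 interferon gamma-induced genes and 11 of 15 MHC class II genes. Alternatives were other pseudocounts, filters, scalings, weights, a replicate block, fewer groups and each library left out.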

Additional observations from a re-analysis of the deposited data

Results flagged for a closer look

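In 13 of the 132 groups of 4 or 5 libraries examined for the named genes, 1 library lay far from the others, and chance flags about 1 in 20 groups. WT 2 months replicate 3 was the highest of its group for the neutrophil genes Mmp8 (881.4 normalized counts), S100a9 (6030) and S100a8 (9581). WT 2 months replicate 1 was the highest for Rassf10 (3.804), Mab21l2 (39.16) and Ntf3 (13.94). Replicate 4 of the same group was the highest for Selp (3275). Among the libraries of 1 year, replicate 1 was the highest for Car1 (1337), Flt3 (684.6) and Tet2 (2118), replicate 4 for Cx3cr1 (18.1) and replicate 5 for Mefv (6.485), while replicate 2 was the lowest for Plac8 (76.31).

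For 6 genes the change between 1 year and 2 months differed between IL1R1 KO and WT in the test of the difference itself (limma, adjusted p under 0.05). The differences, IL1R1 KO minus WT, were -1.321 for Clca3a1, -1.103 for Slc24a5, 1.601 for Rel, -0.9035 for Rsrp1, -1.968 for Gm14391 and -5.517 for Wif1 on the log2 scale. Clca3a1 passed in all 26 alternative settings. Gm14391 belongs to a family of similar zinc finger genes that can share reads, and Wif1 was above 0 in 4 libraries.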

How the results depend on the processing

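Of 173 named genes, 157 passed, and none of these changed direction in any alternative setting. Of the 157, 61 passed in every setting and 96 were lost in at least 1. Changes of sign in genes that passed in neither fit were not counted. The 3 settings that moved the WT counts most were chosen after seeing the data. Without WT 2 months replicates 2 and 4, 748 genes passed (538 higher, 210 lower), without WT 1 year replicates 2 and 3, 1018 (602 and 416), and with the myeloid marker level as a covariate, 682 (487 and 195). The first 2 use fewer samples, and the cause of the third was not tested. In WT 1 year versus 2 months, with 1 library left out, 1278 to 1751 genes passed, 793 to 995 higher and 478 to 756 lower. The lower count was 512 without WT 1 year replicate 5, 492 without WT 2 months replicate 2 and 478 without WT 2 months replicate 4.

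Between IL1R1 KO and WT, array quality weights gave 10 genes, and leaving out 1 library gave 1 (without WT 1 year replicate 3 or IL1R1 KO 1 year replicate 2) to 31 (without IL1R1 KO 1 year replicate 4). Other such counts were 12 and 3 without WT 2 months replicate 2 or 4 and 15 and 13 without IL1R1 KO 2 months replicate 1 or 3. Between germ-free and WT, dropping the filter on low values gave 13 genes, and leaving out 1 library gave 0 to 59. The 59 came without germ-free 1 year replicate 2, where the lone library left is assumed to vary like the other groups, and 7 passed without WT 1 year replicate 1 or WT 2 months replicate 2. Between WT 2 years and 1 year, 0 genes passed with a pseudocount of 0.5, a mean of at least 50, plain eBayes or the replicate block, 9 with array weights, and 0 to 7 with 1 library left out, 7 without WT 1 year replicate 1. The cause of these moves was not tested.

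The labels state no pairing of replicate numbers, and the main fit used none. Deviations of same-numbered WT libraries correlated at -0.0252 to 0.0149. A correlation over all genes cannot show whether some libraries were prepared together. With a replicate block 1483 genes passed in WT 1 year versus 2 months, 877 higher and 606 lower, 5 between IL1R1 KO and WT and 0 between germ-free and WT. Genes near 0 in one age are limited by depth, which was lower at 2 months.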

Other observations

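Anxa6, a membrane-binding annexin, had the smallest p among the large falls of well expressed genes, with 1036, 1047, 1304, 1376 and 1151 normalized counts at 1 year, against 2797, 4526, 2995 and 3428 at 2 months (log2 change -1.52 ± 0.19, SE, limma adjusted p = 1.87e-06). No library of 1 year reached the lowest of 2 months.

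The 5 genes with the smallest p for a difference of the age changes between germ-free and WT mice were Trim14 (-1.08 ± 0.21, SE), Ghdc, St3gal1, Spag4 and Trim47 (-0.80 ± 0.16, SE), none of which passed (limma adjusted p = 0.0830 each).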
